A study of Mus musculus with 6 samples.

Results

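The heparan sulfate proteoglycans of the cell surface, the 6 glypicans (Gpc1 to Gpc6) and the 4 syndecans (Sdc1 to Sdc4), were examined in mouse airway epithelial organoids grown as a flat sheet (2D-MAOs) with or without TGF-β1. The 10 genes were chosen by gene family, with their TGF-β1 against control log2 changes on the same arrays already known, so these changes are a description and carry no test. All 10 were among the 22910 genes that the array named, through 16 probes, and 9 of them passed the filter on dim probes. The study asked how TGF-β1 alters an airway epithelium to which colorectal cancer organoids can attach. Organoids of C57BL/6 mouse lung airway epithelial cells were plated as 2D-MAOs and collected on day 7. The 3 control samples received medium without TGF-β1, and the 3 TGF-β1 samples received it from day 3. Both groups were kept in medium that lacked noggin, a BMP antagonist, and A83-01, an inhibitor of the TGF-β type I receptor, so the controls carried that change of medium too. The methods for these arrays did not restate the concentration of TGF-β1, and the number of mice behind the organoids was not given in the sources used here. The study called the 3 samples of a group biological replicates, and n = 3 arrays a group holds for every value below unless another number is given.

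Glypicans are tied to the outer face of the plasma membrane by a lipid (GPI) anchor, whereas syndecans cross the membrane and carry a short cytoplasmic tail. Both hold long heparan sulfate chains that bind growth factors, morphogens and matrix proteins, and thereby present ligands to receptors or keep them away. Syndecan-1 is the main syndecan of many epithelia, and both families can be cut from the cell surface as soluble ectodomains.

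Each of the 6 arrays held 59305 transcript spots, and between 55.0% and 59.0% of the probes on an array were well above background, the scanner software's own flag. All arrays came from 1 slide and 1 scan. TGF-β1 replicate 3 stood apart from the other TGF-β1 arrays. Over the 14345 genes tested, its Euclidean distance to TGF-β1 replicates 1 and 2 was 61.1 and 62.3 log2 units, against 32.3 between those replicates and 54.4 to 60.9 between it and the controls. Control replicate 3, on slide row 2 like TGF-β1 replicate 3, lay 47.7 and 48.1 from the other controls, against 38.7 between those. Of the controls it was the nearest to TGF-β1 replicate 3, at 54.4. Values without TGF-β1 replicate 3 are given for the 9 glypicans and syndecans tested. For the other genes given with a log2 change, they are given at least where leaving it out moved the adjusted p across 0.05. The epithelial label held, as all 8 airway epithelial markers were well above background on every control array, among them Krt8 and Krt18, keratins of simple epithelia. Their log2 changes were 0.28 ± 0.18 (SE, limma adjusted p = 0.392) and 0.12 ± 0.11 (SE, limma adjusted p = 0.552), and were 0.46 (0.0606) and 0.16 (0.381) with TGF-β1 replicate 3 left out. The 8 genes ranged in log2 change from −0.94 for Elf3, an epithelial transcription factor, to 0.82 for Epcam, an epithelial adhesion molecule, with limma adjusted p of 0.152 and 0.115, and with replicate 3 left out these were −1.17 (0.0400) and 1.03 (0.0179). Signals below are quantile-normalised log2 intensities. They rank samples for a given probe but not genes against each other, because probes differ in brightness, and so no order of the 10 genes by level is given.

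Of the 9 genes tested, 8 had a higher mean signal after TGF-β1, as did 45.8% of all genes tested. In 5 of the 9 (Gpc1, Gpc3, Gpc4, Sdc2 and Sdc3) all 3 TGF-β1 arrays lay above all 3 control arrays. Of all genes, 12.9% were placed this way and 13.5% the opposite way. The median log2 change was 0.74 over the 9 genes, 0.85 over the 5 glypicans tested and 0.52 over the 4 syndecans, and −0.031 over all genes. A call required a 2-fold difference and a limma p adjusted by Benjamini-Hochberg over all genes under 0.05. By it 1 of the 9, Gpc3, was called higher and 0 lower, where 1.19% of all genes were called higher and 0.188% lower. With no 2-fold threshold the count was 2, Gpc3 and Gpc4, where 1.63% of all genes were called higher and 0.404% lower. Without TGF-β1 replicate 3 the 2-fold call included 3 of the 9 (Gpc2, Gpc3 and Sdc3), all higher, and the background rose with it, to 3.86% higher and 1.09% lower (9.08% and 6.27% by the adjusted p alone). Because these changes were known when the genes were chosen, nothing is read from these counts. In RNA from whole cultures, a change in the number of cells of a type and a change in RNA per cell cannot be told apart.

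**Figure D1:**
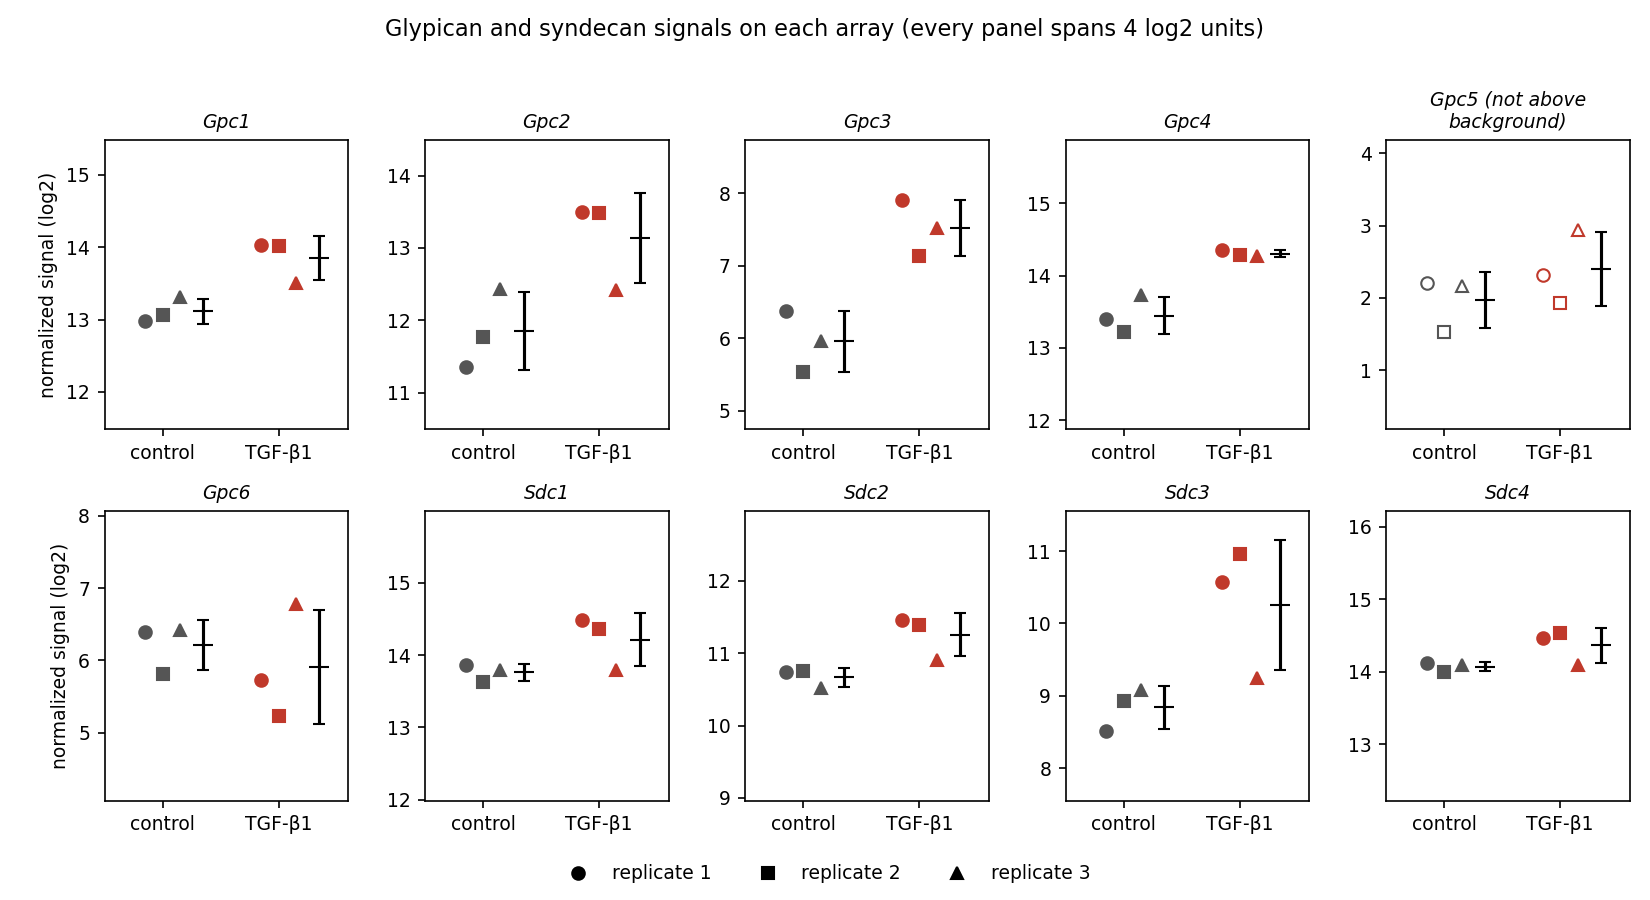
Quantile-normalised log2 signal (vertical axis) of each of the 10 genes on the 3 control (grey) and 3 TGF-β1 (red) arrays, with the symbol giving the replicate and the black bar the mean ± SD of the group. Open symbols mark Gpc5, whose brightest probe in controls is drawn and which missed the detection flag on all 6 arrays. Gpc3 and Gpc4 show all 3 TGF-β1 arrays clear of the controls, whereas TGF-β1 replicate 3 (triangle) lies at or near the control values for Gpc2, Sdc1, Sdc3 and Sdc4.

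Gpc3 encodes the glypican that binds hedgehog ligands and limits their signal, and whose loss causes an overgrowth syndrome. Its signal was 6.37, 5.53 and 5.96 in controls 1 to 3 and 7.91, 7.14 and 7.53 in TGF-β1 samples 1 to 3. The lowest TGF-β1 array lay 0.76 above the highest control array, the widest gap among the 9 genes tested. The log2 change was 1.57 ± 0.27 (SE), a 2.96-fold difference. TGF-β1 replicate 3 was shifted from the control mean by 100.3% of the mean shift of replicates 1 and 2, and the change without it was 1.57. The Gpc3 spot was dim, at 3.15 to 4.78 times local background on control arrays and 7.02 to 11.9 times on TGF-β1 arrays. With another background correction (normexp) the log2 change was 0.82 and Gpc3 was not called. The call was also lost when any of the other 5 arrays was left out, although the log2 change then stayed between 1.36 and 1.78, and when the row of the slide was added as a block.

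Gpc4, a glypican linked to FGF and Wnt signalling, is the neighbour of Gpc3 on chromosome X, with 0 annotated genes starting between them in the RefSeq annotation of GRCm38.p6. Its brightest probe gave 13.39, 13.22 and 13.73 in the controls and 14.35, 14.28 and 14.26 after TGF-β1. The TGF-β1 arrays lay close together (SD 0.047) and all above the controls, with a log2 change of 0.85 ± 0.15 (SE). Replicate 3 showed 93.8% of the mean shift of replicates 1 and 2, and the change without it was 0.87. The other 2 Gpc4 probes also placed all TGF-β1 arrays above the controls, with log2 changes of 0.80 and 0.46. The brightest probe's change was 0.65 when arrays were scaled to their 75th percentile instead of by quantiles. Relative to the median of all genes it was 0.75 with that scaling and 0.88 with quantiles.

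The promoters of the neighbours Gpc3 and Gpc4, and that of Sdc3, the syndecan with the highest log2 change, are shown because the DNA just before the transcription start is where Smad and AP-1 factors of the TGF-β response can bind. The Gpc3 promoter was shown as that of the called gene, and the other two were picked after their values were seen. The 250 bases before the start are printed 5′ to 3′ on the gene's strand, from the RefSeq annotation of GRCm38.p6, with matches to the short Smad motif CAGAC in capitals, searched on both strands. Gpc3 lies on the minus strand (chrX:52613975-52614224), Gpc4 on the minus strand (chrX:52164924-52165173) and Sdc3 on the plus strand (chr4:130792287-130792536).
Gpc3: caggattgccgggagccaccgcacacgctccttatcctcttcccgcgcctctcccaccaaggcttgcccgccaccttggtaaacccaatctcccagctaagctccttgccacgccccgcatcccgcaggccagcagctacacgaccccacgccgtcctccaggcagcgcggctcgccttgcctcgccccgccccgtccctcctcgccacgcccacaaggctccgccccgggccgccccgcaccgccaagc
Gpc4: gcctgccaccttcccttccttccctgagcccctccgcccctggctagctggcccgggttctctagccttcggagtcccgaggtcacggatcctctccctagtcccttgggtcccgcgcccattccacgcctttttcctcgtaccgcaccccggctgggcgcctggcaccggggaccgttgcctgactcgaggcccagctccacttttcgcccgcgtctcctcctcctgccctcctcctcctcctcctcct
Sdc3: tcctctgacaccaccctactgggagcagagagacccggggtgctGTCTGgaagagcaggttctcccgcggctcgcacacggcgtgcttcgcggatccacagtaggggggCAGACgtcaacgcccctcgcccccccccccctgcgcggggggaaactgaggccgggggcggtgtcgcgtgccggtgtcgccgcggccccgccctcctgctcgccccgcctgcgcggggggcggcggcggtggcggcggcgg
The Gpc3 and Gpc4 stretches held 0 matches to CAGAC, and that of Sdc3 held 2, which start 206 and 141 bases before the transcription start. GC content was 71.6% for Gpc3, 68.4% for Gpc4 and 76.4% for Sdc3. Of the 7 members with a promoter in the table (Gpc2, Gpc3, Gpc4, Gpc5, Sdc1, Sdc3 and Sdc4), 2 held CAGAC, Sdc3 and Sdc1, the latter at 215 bases before the start. Over all 32851 promoters in the table, 42.2% held it. The AP-1 motif TGANTCA, searched on both strands, matched 0 of the 7 and 6.75% of all promoters. The promoters of Gpc1, Gpc6 and Sdc2 were not analysed here. A match is a description of letters and not of binding, and no match says only that these letters are not in this window.

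Gpc1, a broadly expressed glypican that binds FGFs, gave 12.97, 13.06 and 13.31 in the controls and 14.03, 14.02 and 13.50 after TGF-β1. All TGF-β1 arrays lay above the controls, by 0.19 at the closest, and the log2 change was 0.74 ± 0.18 (SE). Replicate 3 showed 42.4% of the mean shift of replicates 1 and 2. Without it the change was 0.91.

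Gpc2, a glypican best known from the developing nervous system, had the third highest change but its groups overlapped. The signals were 11.35, 11.76 and 12.43 in the controls and 13.50, 13.49 and 12.42 after TGF-β1, so that TGF-β1 replicate 3 lay 0.004 below the highest control, control replicate 3. The log2 change was 1.29 ± 0.37 (SE), and 1.65 without TGF-β1 replicate 3. On the 4 arrays of slide row 1, which hold replicates 1 and 2 of each group, it was 1.93.

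Gpc5 and Gpc6 lie on chromosome 14, with 6 annotated genes, 0 of them protein-coding, starting between them. With each of its 3 probes Gpc5 missed the detection flag on all 6 arrays, at 1.05 to 1.43 times local background, and no change is given for it. Gpc6, known to favour hedgehog signalling, gave 6.40, 5.81 and 6.42 in the controls and 5.72, 5.24 and 6.77 after TGF-β1. It was the only one of the 9 with a negative log2 change, −0.30 ± 0.39 (SE), and the groups overlapped. TGF-β1 replicate 3 was the highest of all 6 arrays and replicate 2 the lowest. Leaving out TGF-β1 replicate 3 gave −0.73, and leaving out replicate 2 gave 0.038.

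Among the syndecans, Sdc3, best known from neurons and muscle stem cells, had the highest log2 change at 1.42 ± 0.43 (SE). Its signal was 8.51, 8.93 and 9.08 in the controls and 10.58, 10.96 and 9.25 after TGF-β1. All TGF-β1 arrays lay above the controls, but replicate 3 by only 0.17, with 21.1% of the mean shift of replicates 1 and 2. Without it the change was 1.93.

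Sdc1, the epithelial syndecan, is the only one of the 4 syndecans with several probes on the array. Its brightest probe gave 13.86, 13.63 and 13.80 in the controls and 14.49, 14.36 and 13.79 after TGF-β1. Replicate 3 lay within the control range and showed 4.71% of the mean shift of the other TGF-β1 replicates, and the log2 change was 0.45 ± 0.20 (SE). The other 2 probes gave 0.67, with all TGF-β1 arrays above the controls, and 0.29, with overlapping groups, so the probes of Sdc1 differed in whether the groups were separate. The change of the brightest probe was 0.66 without TGF-β1 replicate 3.

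Sdc2, a syndecan common in mesenchymal cells, gave 10.73, 10.75 and 10.52 in the controls and 11.46, 11.40 and 10.91 after TGF-β1. The groups were separate by 0.16, and the log2 change was 0.59 ± 0.17 (SE). Replicate 3 showed 32.0% of the mean shift of replicates 1 and 2, and the change without it was 0.76.

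Sdc4, a widely expressed syndecan of focal adhesions, had the lowest change among the syndecans. The signals were 14.12, 14.00 and 14.09 in the controls and 14.47, 14.54 and 14.09 after TGF-β1, with replicate 3 inside the control range. The log2 change was 0.30 ± 0.14 (SE). It was 0.43 without TGF-β1 replicate 3 and 0.074 under 75th percentile scaling. Relative to the median of all genes it was 0.17 under that scaling and 0.33 with quantiles.

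The genes thus differed in how TGF-β1 replicate 3 behaved. Of the 8 genes in which replicates 1 and 2 averaged above the control mean, 6 showed under 50% of that shift in replicate 3. Of all genes with such a shift, 57.0% did. Gpc3 and Gpc4 were the 2 in which replicate 3 moved as far or nearly as far as the others. The part of this array in the changes of the other 6 genes was not tested beyond the values without it. By Euclidean distance between mean-centred log2 profiles over the 6 arrays, the pairs most alike were Sdc1 and Sdc4 (0.31) and Sdc1 and Sdc2 (0.35). These distances are a description, since all genes share the same 6 libraries.

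**Figure D2:**
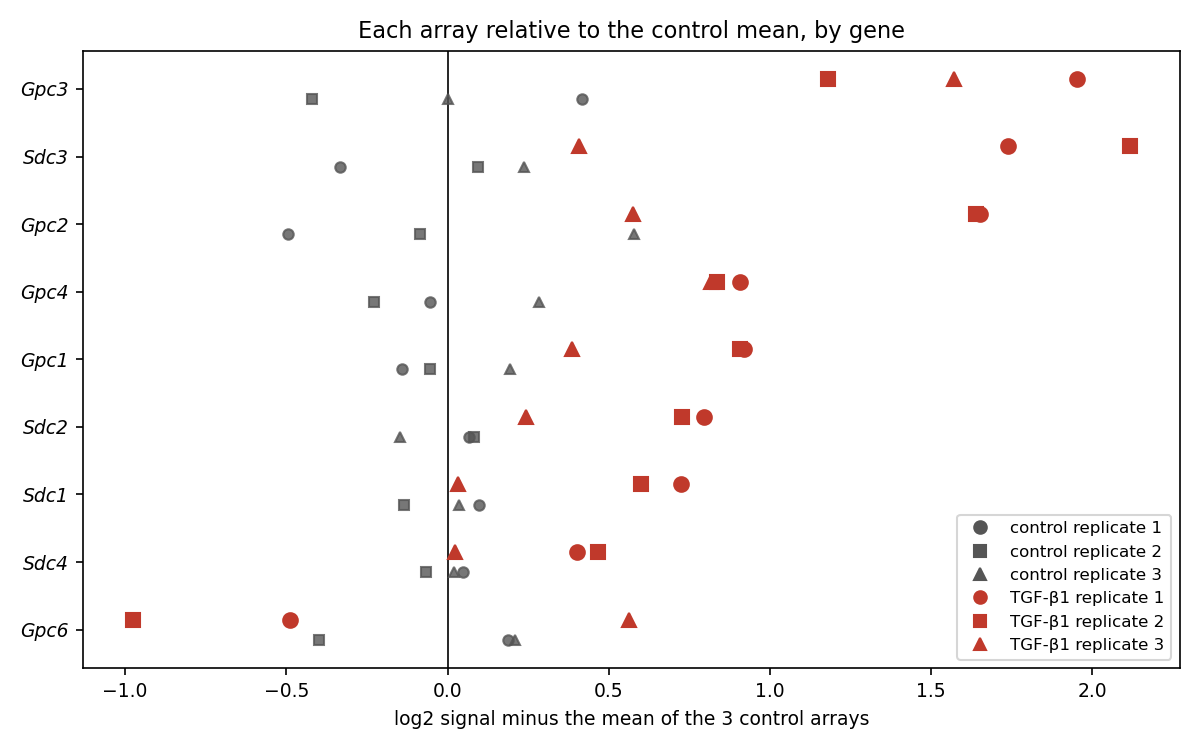
Log2 signal of each array minus the mean of the 3 control arrays (horizontal axis) for the 9 genes tested, ordered by log2 change, with control arrays in grey, TGF-β1 arrays in red and the symbol giving the replicate. TGF-β1 replicate 3 (red triangle) sits with replicates 1 and 2 for Gpc3 and Gpc4, between them and zero for Gpc1, Gpc2, Sdc2 and Sdc3, near zero for Sdc1 and Sdc4, and on the opposite side of zero for Gpc6.

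**Figure D3:**
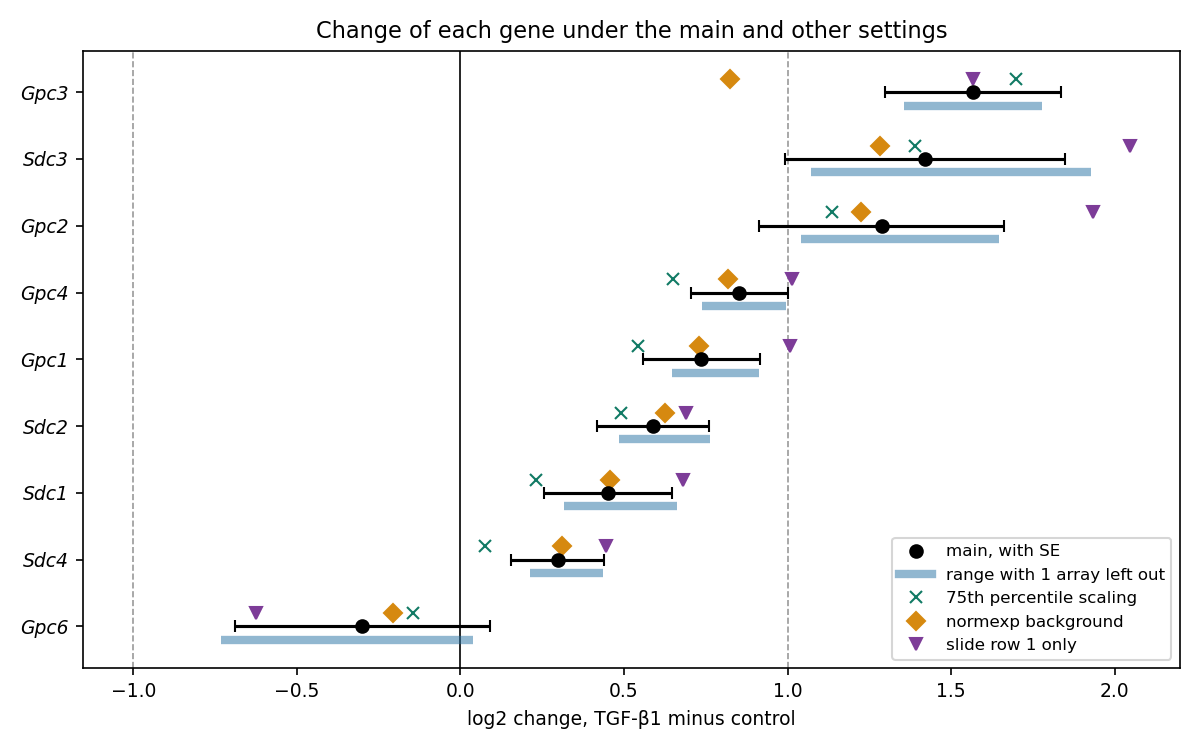
Log2 change, TGF-β1 minus control (horizontal axis), of the 9 genes tested, as the reported value with its SE (black), the range when each array is left out in turn (blue bar), and the values under 75th percentile scaling (cross), normexp background correction (diamond) and slide row 1 only (triangle). Dashed lines mark a 2-fold difference in either direction. The normexp value of Gpc3, 0.82, lies below the 2-fold line, and only the range of Gpc6 crosses zero.

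The genes that build and use heparan sulfate were examined through 9 lists with 91 genes in all, of which 69 were tested. By the 2-fold call 1 of the 69 was higher, Ext1, and 0 were lower, beside 1.19% and 0.188% of all genes. At an unadjusted limma p under 0.05 there were 24 higher and 3 lower, beside 11.4% and 10.8% of all genes, and this background applies to each such count below. By the methods' t-test after Benjamini-Hochberg 0 of the 69 were called, where 4 of all genes were higher and 1 lower. With no 2-fold threshold 4 were higher (Ext1, Furin, Prkca and Tiam1), beside 1.63% of all genes. The median log2 change over the 69 genes was 0.29, against −0.031 over all genes, and 55 of the 69 were above 0. Without TGF-β1 replicate 3 the 2-fold call included 10, all higher (Cd44, Chst11, Col18a1, Ext1, Fgfr1, Hspg2, Nrp1, Robo1, Sulf1 and Sulf2), beside 3.86% of all genes called higher and 1.09% lower.

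Chains are started on a xylose linker and then polymerised. In this list of 12 genes, all tested, Ext1 rose. It encodes a subunit of the heparan sulfate polymerase. Its signal was 10.95, 10.92 and 11.39 in the controls and 12.51, 12.37 and 11.91 after TGF-β1, with all TGF-β1 arrays above the controls. The log2 change was 1.18 ± 0.20 (SE, limma adjusted p = 0.0421). The call was lost without control replicate 1 (limma adjusted p = 0.160), control replicate 2 (0.151), TGF-β1 replicate 1 (0.166) or TGF-β1 replicate 2 (0.161), and with the slide row as a block (0.0534). Ext2, the other subunit, had a log2 change of −0.16 ± 0.14 (SE, limma adjusted p = 0.510), and Xylt1, a xylosyltransferase that starts the chain, −0.43 ± 0.11 (SE, limma adjusted p = 0.0993). The list's median was 0.17.

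The sulfotransferases and the epimerase that modify the chain had 16 genes, 9 tested, with a median log2 change of 0.26, and none passed the adjusted p. At an unadjusted limma p under 0.05 there were 2 higher and 0 lower. Hs6st2, a 6-O-sulfotransferase, gave 12.08, 12.08 and 12.56 in the controls and 13.11, 12.97 and 13.18 after TGF-β1, a log2 change of 0.85 ± 0.16 (SE, limma adjusted p = 0.0547), and 0.80 (0.0376) with replicate 3 left out. Hs6st1 had a log2 change of 0.55 ± 0.20 (SE, limma adjusted p = 0.190) with overlapping groups.

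Outside the cell, Sulf1 and Sulf2 remove 6-O-sulfate and heparanase (Hpse) cuts the chain. Sulf1 gave 11.51, 11.53 and 12.15 in the controls and 13.35, 13.14 and 12.33 after TGF-β1, a log2 change of 1.21 ± 0.30 (SE, limma adjusted p = 0.103), and 1.52 (0.0138) with replicate 3 left out. Sulf2 gave 9.74, 10.90 and 11.02 in the controls and 12.07, 12.43 and 9.65 after TGF-β1, so that replicate 3 was the lowest of the 6 arrays. Its log2 change was 0.83 ± 0.74 (SE, limma adjusted p = 0.520), and 1.70 (0.0409) with replicate 3 left out. With TGF-β1 replicate 2 left out it was 0.31. Hpse had a log2 change of −0.77 ± 0.22 (SE, limma adjusted p = 0.127), and −0.90 (0.0443) with replicate 3 left out.

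Of the 7 genes for cutting the core proteins, 5 were tested. Furin, a convertase that cleaves several glypicans, passed the adjusted p but was under 2-fold. Its signal was 13.36, 13.39 and 13.80 in the controls and 14.31, 14.43 and 14.27 after TGF-β1, a log2 change of 0.82 ± 0.15 (SE, limma adjusted p = 0.0475). Under 75th percentile scaling the adjusted p was 0.0833. The sheddases Adam10 and Adam17 had log2 changes of 0.45 ± 0.21 (SE, limma adjusted p = 0.263) and 0.11 ± 0.18 (SE, limma adjusted p = 0.745), and 0.65 (0.0444) and 0.20 (0.482) with replicate 3 left out. Notum, which cleaves the GPI anchor of glypicans as well as acting on Wnts, had −0.042 ± 0.10 (SE, limma adjusted p = 0.823), and −0.065 (0.703) with replicate 3 left out.

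Of the 7 cytoplasmic partners of syndecans, Tiam1 and Prkca passed the adjusted p, both under 2-fold. Tiam1, a Rac activator, gave 8.32, 8.23 and 8.37 in the controls and 9.44, 9.15 and 8.91 after TGF-β1, a log2 change of 0.86 ± 0.15 (SE, limma adjusted p = 0.0466). Prkca, protein kinase C alpha, which binds syndecan-4, gave 10.58, 10.63 and 10.75 in the controls and 11.41, 11.43 and 11.33 after TGF-β1, a log2 change of 0.74 ± 0.10 (SE, limma adjusted p = 0.0213). In both, all TGF-β1 arrays lay above the controls. Like Ext1, Furin, Tiam1 and Prkca did not pass the adjusted p when control replicate 1 or 2 or TGF-β1 replicate 1 or 2 was left out (limma adjusted p between 0.0968 and 0.178), nor did Tiam1 without control replicate 3 (0.0758) or Prkca with the mean of its probes (0.0512). Sdcbp (syntenin), which links syndecan tails to trafficking, had −0.46 ± 0.11 (SE, limma adjusted p = 0.0892), and −0.51 (0.0362) with replicate 3 left out.

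The other heparan sulfate proteoglycans had a median log2 change of 0.85 over 6 genes tested, near the 0.83 of the list for editing and breakdown outside the cell. Without TGF-β1 replicate 3 these medians were 1.21 and 1.52. All 6 were above 0, but none passed the adjusted p. At an unadjusted limma p under 0.05 there were 4 higher and 0 lower. Hspg2 (perlecan), a basement membrane proteoglycan, gave 8.14, 8.38 and 8.84 in the controls and 10.89, 10.80 and 9.09 after TGF-β1, a log2 change of 1.80 ± 0.48 (SE, limma adjusted p = 0.118), and 2.39 (0.00466) with replicate 3 left out. Col18a1 (collagen XVIII) gave 13.30, 13.68 and 13.89 in the controls and 15.28, 15.39 and 14.04 after TGF-β1, a log2 change of 1.28 ± 0.37 (SE, limma adjusted p = 0.132), and 1.71 (0.00712) with replicate 3 left out. In both genes replicate 3 was the TGF-β1 array nearest the controls, as for Sdc3.

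Among ligands and receptors that bind heparan sulfate, 15 of 18 genes were tested, with a median log2 change of 0.29, and none passed the adjusted p. At an unadjusted limma p under 0.05 there were 5 higher and 0 lower. Fgfr1, an FGF receptor, gave 6.74, 7.56 and 8.10 in the controls and 9.33, 9.44 and 8.07 after TGF-β1, a log2 change of 1.48 ± 0.46 (SE, limma adjusted p = 0.151), and 1.92 (0.0271) with replicate 3 left out. Robo1, the Slit receptor, gave 12.03, 11.87 and 12.32 in the controls and 13.52, 13.29 and 12.78 after TGF-β1, a log2 change of 1.12 ± 0.22 (SE, limma adjusted p = 0.0567), and 1.33 (0.00942) with replicate 3 left out. Fgf2, Fgf10 and Hgf were undetected (below the well-above-background flag) on all 6 arrays. Of the hedgehog ligands and targets, on which Gpc3 and Gpc6 act, Shh, Dhh, Gli1 and Hhip were likewise undetected on all 6. Smo, Ptch1 and Ihh were tested and had log2 changes of 0.42 ± 0.13 (SE, limma adjusted p = 0.146), 0.24 ± 0.13 (SE, limma adjusted p = 0.311) and −0.17 ± 0.25 (SE, limma adjusted p = 0.703), and Smo 0.52 (0.0290) with replicate 3 left out.

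**Figure D4:**
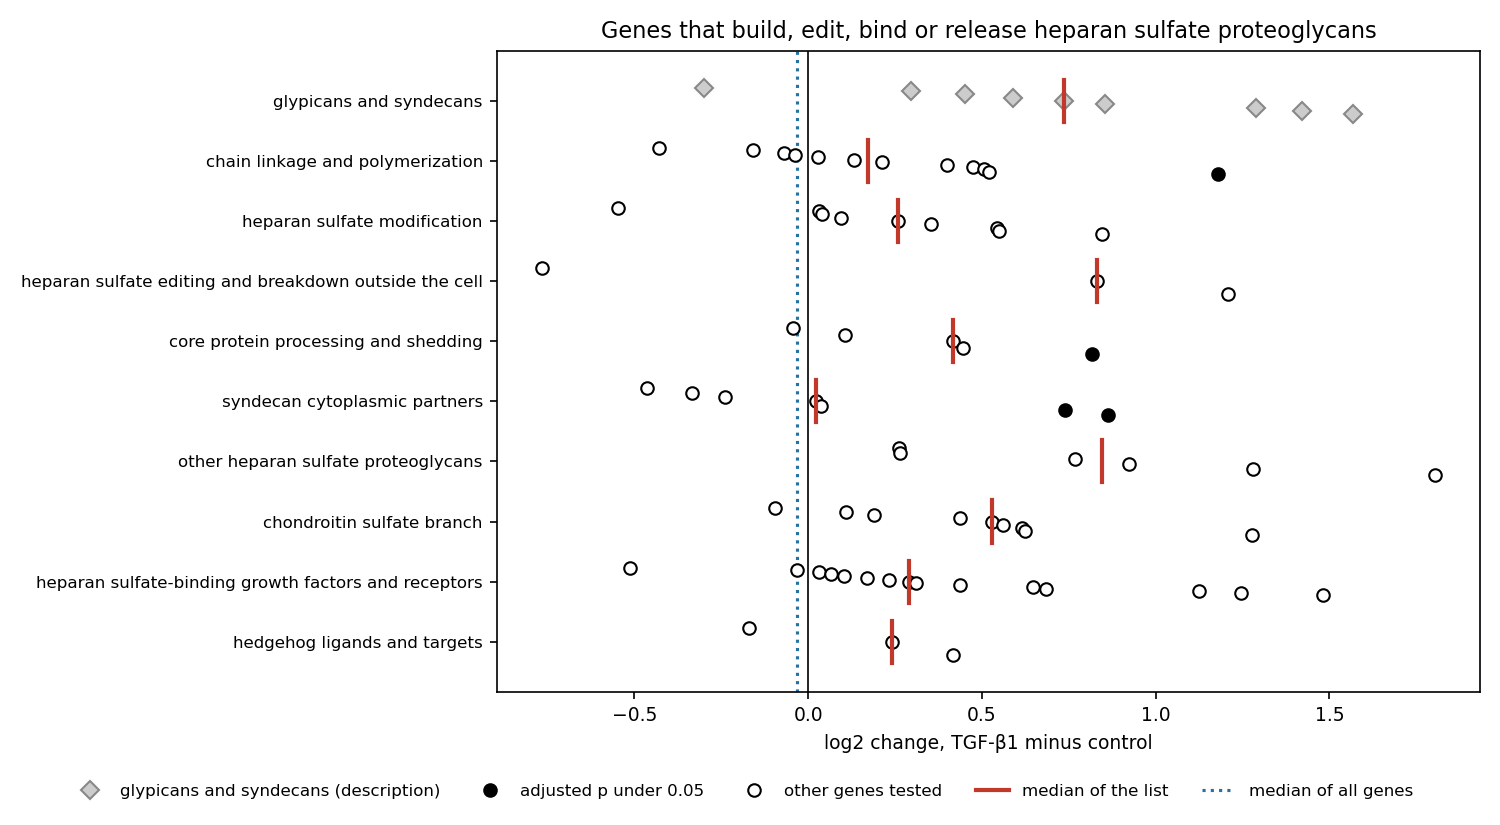
Log2 change, TGF-β1 minus control (horizontal axis), of the 9 glypicans and syndecans tested (grey diamonds, a description) and of the 69 tested genes in the 9 lists (circles, filled where the limma adjusted p was under 0.05), with the median of each list in red and of all 14345 genes as the dotted line at −0.031. The 4 filled circles are Ext1, Furin, Prkca and Tiam1, and the medians of the other heparan sulfate proteoglycans and of the editing list lie at 0.85 and 0.83.

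Markers of fibroblasts, smooth muscle and pericytes, endothelium and leukocytes were also examined, and of these only Col1a1, Col1a2 and Cnn1 were called. Of 10 fibroblast markers, Col3a1, Lum, Pdgfrb and Tcf21 were undetected on all 6 arrays. Col1a1 and Col1a2, type I collagen chains, were flagged as well above background on 0 of the 3 control arrays and all 3 TGF-β1 arrays. They were at least 2.59-fold and at least 2.38-fold higher. The bound sets the TGF-β1 mean against the higher, on each control array, of the probe's own signal and the lowest signal of any probe well above background. The limma adjusted p of 0.00910 and 0.0162 do not test these bounds. They belong to the unbounded log2 changes of 2.72 and 2.07, whose control signals were below detection. Both genes passed the filter on dim probes only through the TGF-β1 arrays, so their adjusted p values are a description. With normexp background correction the log2 changes of Col1a1 and Col1a2 were 0.60 (limma adjusted p = 0.0414) and 0.43 (limma adjusted p = 0.0856), below these bounds and below 2-fold. The summed signal of the fibroblast list, most of it from the Dcn probe, was 617 to 694 in the controls and 756 to 2752 after TGF-β1, with TGF-β1 replicate 3 at 756. The brightest genes of the list were Dcn (decorin), with a log2 change of 1.00 ± 0.49 (SE, limma adjusted p = 0.273), and Pdgfra, with 0.21 ± 0.18 (SE, limma adjusted p = 0.484). Dcn gave 11.10, 9.68 and 8.98 in TGF-β1 replicates 1 to 3. Its log2 change was 1.47 (0.0547) with TGF-β1 replicate 3 left out and 0.42 with TGF-β1 replicate 1 left out. Thy1, another fibroblast marker, gave 4.14, 4.67 and 4.23 in the controls and 8.19, 7.65 and 4.60 after TGF-β1, with replicate 3 inside the control range, as for Sdc1 and Sdc4. Its log2 change was 2.47 ± 0.87 (SE, limma adjusted p = 0.177), and 3.58 (0.00212) with replicate 3 left out. Of 6 smooth muscle and pericyte markers, Cnn1 (calponin) rose by 2.13 ± 0.31 on the log2 scale (SE, limma adjusted p = 0.0231), Acta2 had a log2 change of 0.021 ± 0.21 with its brightest probe (SE, limma adjusted p = 0.960) but 1.38 ± 0.36 with the mean of its probes (SE, limma adjusted p = 0.109), so its probes differed, and Myh11 and Des were undetected on all 6 arrays. The summed signal of that list, nearly all from the brightest Acta2 probe, was 10337 to 17062 in the controls and 12050 to 16169 after TGF-β1. The calls of Cnn1, Col1a1 and Col1a2 were lost without TGF-β1 replicate 2 (limma adjusted p of 0.101, 0.0515 and 0.0727), that of Cnn1 also without control replicate 1 (0.0864), 2 (0.0993) or 3 (0.0540), and that of Col1a2 also without control replicate 1 (0.0597) or 2 (0.0754). Counting every processing alternative and omission run, Cnn1, Col1a1 and Col1a2 did not pass the adjusted p in 7, 3 and 6. Whether fibroblasts or smooth muscle cells had a part in the changes of Sdc2, Gpc3 or the other genes was not tested. The endothelial genes Cdh5, Kdr, Tie1 and Cldn5 and the leukocyte genes Ptprc, Adgre1, Cd79a and Lyz2 were undetected on all 6 arrays. The summed signals were 85.6 to 101.8 in the controls and 97.3 to 113 after TGF-β1 for the 6 endothelial markers, and 5594 to 6519 and 8054 to 10161 for the 7 leukocyte markers. The brightest leukocyte genes were Cd68 and Itgam, with log2 changes of 0.90 ± 0.28 (SE, limma adjusted p = 0.147) and 0.43 ± 0.13 (SE, limma adjusted p = 0.134), the latter −0.064 with the mean of its probes. The endothelial genes tested were Pecam1, at 0.13 ± 0.11 (SE, limma adjusted p = 0.505), and Vwf, at 0.19 ± 0.67 (SE, limma adjusted p = 0.885), and 0.98 (0.0936) with replicate 3 left out, detected on 1 control and 2 TGF-β1 arrays. The Vwf change was −0.21 with TGF-β1 replicate 2 left out.

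Among airway cell types, 4 of 5 basal cell markers and 4 of 5 ciliated cell markers had log2 changes above 0, as had 45.8% of all genes. Of these 10 only Foxj1 was called, beside 1.19% of all genes called higher and 0.188% lower. Without TGF-β1 replicate 3 the call included Foxj1 and 3 basal markers (Krt14, Krt5 and Ngfr), all higher. The shares of all genes were then 3.86% higher and 1.09% lower. Krt14, a basal keratin, gave 13.94, 14.55 and 14.79 in the controls and 16.38, 16.30 and 15.25 after TGF-β1, a log2 change of 1.55 ± 0.35 (SE, limma adjusted p = 0.0859), and 1.92 (0.0109) with replicate 3 left out. Krt5 had 1.37 ± 0.49 (SE, limma adjusted p = 0.179), and 1.90 (0.0194) with replicate 3 left out. Ngfr had 1.36 ± 0.43 (SE, limma adjusted p = 0.154), and 1.77 (0.0272) with that array left out. Krt15 had −1.06 ± 0.64 (SE, limma adjusted p = 0.353), and −0.24 (0.346) with replicate 3 left out. Foxj1, the regulator of motile cilia, rose by 1.47 ± 0.096 on the log2 scale (SE, limma adjusted p = 0.00238), with all TGF-β1 arrays above the controls, while Tppp3, another ciliated cell gene, had a log2 change of 0.26 ± 0.13 (SE, limma adjusted p = 0.298), and 0.15 (0.393) with replicate 3 left out. The summed signal ran from 44458 to 60723 in the controls and 56659 to 148503 after TGF-β1 for the basal list, with TGF-β1 replicate 3 the lowest at 56659, and from 1945 to 2293 and 2597 to 3266 for the ciliated list, with TGF-β1 replicate 3 the highest. The 4 club cell markers went both ways, with a median log2 change of −0.52. Cyp2f2 had −0.066 ± 0.095 (SE, limma adjusted p = 0.696), Scgb3a2 1.05 ± 0.28 (SE, limma adjusted p = 0.117), and 1.27 (0.0331) with replicate 3 left out, Scgb3a1 −0.97 ± 0.89 (SE, limma adjusted p = 0.530) and Scgb1a1, the main club cell secretory protein, −2.27 ± 0.73 (SE, limma adjusted p = 0.158). Scgb1a1 gave 10.83, 10.18 and 7.77 in the controls and 7.00, 7.57 and 7.42 after TGF-β1. All its TGF-β1 arrays lay below the controls, but control replicate 3 lay close to them. The summed signal of the club cell list, nearly all from the bright Cyp2f2 probe, was 164872 to 171977 in the controls and 156369 to 163948 after TGF-β1. For the type 1 alveolar list, with Pdpn at 0.095 ± 0.11 (SE, limma adjusted p = 0.623), and 0.17 (0.291) with replicate 3 left out, and Aqp5 at −0.090 ± 0.098 (SE, limma adjusted p = 0.600), it was 263669 to 289132 and 245140 to 279689. The part of the make-up of the cultures in the glypican and syndecan changes was not tested.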

How the data were processed

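Each sample was 1 single-colour (Cy3) Agilent SurePrint G3 Mouse array. The deposited files hold the intensity per spot that the authors exported with Agilent Feature Extraction 11.0.1.1, annotated on mm9, and the authors normalised log2 signals by quantiles. Here the processed signal was treated likewise in limma 3.58.1 (R 4.3.3): outlier-flagged spots were dropped, spots of a probe averaged, and probes kept when well above background on at least 3 of 6 arrays. Of 35883 probes with a RefSeq accession, 32991 matched a gene. The brightest probe stood for a gene, which left 14345 genes. The limma fit compared the groups without covariates, with Benjamini-Hochberg adjustment over these genes. The 10 genes and all lists were chosen with earlier results of these data known. The rule for named genes took all 10, in each pathway list every called gene or otherwise the 2 with the largest change among those well above background on all 6 arrays, in each marker list the 2 brightest and every called gene, and the 5 genes nearest in profile to Gpc3 and Gpc6. Ext2, Xylt1, Hpse, Adam17, Notum, Sdcbp, Ihh, Elf3, Epcam, Thy1, Krt5, Ngfr, Scgb1a1, Scgb3a1 and the genes given as undetected were named after their values were seen. The number of arrays limits the precision. The deviations of replicates with the same number had correlations of −0.0077, 0.33 and −0.047 for numbers 1 to 3. Those of unlike numbers ran from −0.37 to 0.25. Replicates were not treated as pairs in the main fit. With the replicate number as a block, the SE of the Gpc3 log2 change was 0.10, against 0.27 without it. The processing alternatives are given at the end. No sequence of the encoded proteins was used here.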

Additional observations from a re-analysis of the deposited data

How the results depend on the processing

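The sign of the log2 change held for all 9 glypicans and syndecans under each alternative run, except for Gpc6 (0.038 without TGF-β1 replicate 2). Of the 9, the number called (1, Gpc3) was 0 with normexp background, with no filter on dim probes, with the slide row as a block and by the methods' t-test after Benjamini-Hochberg, 2 with no 2-fold threshold, 3 with array weights and 5 within slide row 1. Leaving out 1 array gave 0 to 3. Of all genes, 1.38% were called in either direction, 1.07% with normexp, 0.262% with no filter, 1.65% with the slide row as a block, 0.0349% by the adjusted t-test, 2.04% with no 2-fold threshold, 5.63% with array weights, 6% within slide row 1 and 0.39% to 4.94% with 1 array left out. The number of pathway genes called (1, Ext1) was 0 with no filter, with the slide row as a block and by the adjusted t-test, 2 with normexp, with detection on all 6 arrays or with the mean of a gene's probes, 3 with trend and robust fitting, 4 with no 2-fold threshold, 5 by the unadjusted t-test, 11 with array weights and 13 within slide row 1. Leaving out 1 array gave 0 to 10. The share of all genes called was 1.27% with detection on all 6 arrays and 1.35% with the mean of a gene's probes. It was 1.82% with trend and robust fitting and 2.7% by the unadjusted t-test. With the replicate number as a block, 1 of the 9 (Gpc3) and 0 pathway genes were called, with 86 genes higher and 18 lower over the whole array against 171 and 27. The cause of these differences was not tested.

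Log2 changes moved by more than the spread between replicates for Gpc1 (1.01 within slide row 1), Gpc2 (1.93 within slide row 1), Gpc3 (0.82 with normexp), Gpc4 (0.65 with 75th percentile scaling) and Sdc4 (0.074 with that scaling). The median log2 change of all genes was −0.094 with that scaling, against −0.031 with quantiles. Relative to this median, Gpc4 was at 0.75, against 0.88 with quantiles, and Sdc4 at 0.17, against 0.33. Leaving out 1 array gave 0.65 to 0.91 for Gpc1, 1.04 to 1.65 for Gpc2, 1.36 to 1.78 for Gpc3, 0.74 to 0.99 for Gpc4, −0.73 to 0.038 for Gpc6, 0.32 to 0.66 for Sdc1, 0.49 to 0.76 for Sdc2, 1.07 to 1.93 for Sdc3 and 0.21 to 0.43 for Sdc4. The Gpc3 spot lay at 3.15 to 11.9 times local background and that of Gpc6 at 3.00 to 4.70 times, which limits both.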

Other observations

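The chondroitin sulfate branch, whose enzymes extend the other kind of chain that syndecans can carry, had 12 genes, 9 tested, with a median log2 change of 0.53 and 8 above 0. None passed the adjusted p in limma, and at an unadjusted p under 0.05 there were 3 higher and 0 lower, beside 11.4% and 10.8% of all genes. Chst11, a chondroitin 4-O-sulfotransferase, gave log2 signals of 6.91, 6.33 and 7.18 in the controls and 8.56, 7.94 and 7.75 after TGF-β1, all above the controls, with a log2 change of 1.28 ± 0.28 (SE, limma adjusted p = 0.0800) and 1.44 (0.0312) with TGF-β1 replicate 3 left out. Chst15 had a log2 change of 0.62 ± 0.23 (SE, limma adjusted p = 0.192), and 0.86 (0.0303) with that array left out, with overlapping groups.

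By Euclidean distance between mean-centred log2 profiles over the 6 arrays, the 5 genes nearest to Gpc3 were Gsdme (0.31), Tub (0.35), Hba-a2 (0.58), Has3 (0.61) and Hba-a1 (0.63), where the median over all genes was 2.17. Gsdme was well above background on 0 of the 3 control arrays and Has3 on 1. Hba-a1 and Hba-a2 are near-identical α-globin copies that a probe may not tell apart. The 5 nearest to Gpc6, the gene with the lowest log2 change, were Pgm5 (0.30), 4930447J18Rik (0.31), Mras (0.32), Vsnl1 (0.33) and St3gal6 (0.35), where the median over all genes was 1.31. Pgm5 and 4930447J18Rik were each well above background on 2 control and 2 TGF-β1 arrays.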
